A study of Homo sapiens with 8 samples.

Results

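Expression of 9 genes of HLA class I antigen presentation was examined in A498 and 786-O cells, both established lines of clear cell renal cell carcinoma (ccRCC). The genes were chosen by their role in the pathway, with earlier results of these data known: the heavy chains HLA-B, HLA-C and HLA-E, the light chain B2M, the immunoproteasome subunits PSMB8 and PSMB9, the peptide transporter genes TAP1 and TAP2, and tapasin (TAPBP). They are 9 of 18681 genes that had a current symbol and a RefSeq coding transcript on a primary chromosome, and all 9 were among the 10503 genes with a mean of at least 1 FPKM that entered the tests. FPKM, fragments scaled by transcript length and by the mapped reads of the library, is a level per length, so that levels of different genes can be set side by side.

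Class I molecules carry short peptides from inside the cell to its surface, where CD8+ T cells and natural killer cells read them. The proteasome cuts proteins into peptides, the TAP1 and TAP2 pair pumps them into the endoplasmic reticulum, and tapasin holds the empty heavy chain and B2M beside the transporter until a peptide fits. Interferon gamma raises the transcription of these genes together, and it exchanges catalytic subunits of the proteasome for PSMB8, PSMB9 and PSMB10. Tumors that lose parts of this pathway can escape T cells, and ccRCC is a cancer treated with immunotherapy.

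Each cell line had 2 libraries with non-targeting control (NTC) siRNA and 2 with siRNA against SLINKY, a long intergenic non-coding RNA, 1 library for each of 2 siRNA reagents. All cells, controls included, received 50 nM siRNA with a transfection reagent, and the labels give 16 hr before RNA was taken, while the study's methods state a longer interval. A498 was grown in DMEM and 786-O in RPMI-1640, so that the cell line and its medium cannot be told apart, and each line stands for 1 tumor only. Nothing in the labels says whether same-group libraries came from separate cultures, so p-values measure the spread between these libraries, which may be technical.

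SLINKY itself was listed at 14.6 and 16.1 FPKM in the A498 NTC libraries and at 1.64 and 3.01 FPKM with siRNA 1 and siRNA 2. In 786-O it was at 1.45 and 1.39 FPKM in NTC and at 0.0569 and 0.595 FPKM with the siRNAs, so that the knockdown libraries were lower than their controls in both lines. Estimated depth ranged from 25058805 to 64501902 mapped reads. Of 8 markers of renal tubule epithelium and ccRCC, 7 had a mean of at least 1 FPKM in each line (PAX8 at 39.2 to 48.1 FPKM over all libraries), whereas CA9 was at 0 to 0.559 FPKM. None of 8 leukocyte markers reached a mean of 1 FPKM in either line. Their summed level was 1.02 to 1.19 FPKM in A498 and 0.296 to 0.389 FPKM in 786-O, with PTPRC and CD3E below 0.0005 FPKM in every library. The 4 endothelial markers summed to at most 0.0549 FPKM. Of 5 fibroblast markers, COL1A1 reached a mean of 3.19 FPKM in A498, and the list summed to 2.97 to 3.48 FPKM there and to 0.822 to 0.948 FPKM in 786-O. Their part in the results was not tested.

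Promoter sequence was read from RefSeq (GRCh38.p14) because the genes are known to share upstream elements. A window was found for 8 of the 9 genes (10 windows, since PSMB8 and TAP1 have 2 starts each), and HLA-E was not matched. The core of an interferon-stimulated response element, searched as GAAANNGAAA on both strands in the 250 bases before the start, was present for B2M, TAP1, TAP2 and TAPBP, that is in 4 of 10 windows, and in 3.02% of all 35116 windows of the table. The CCAAT box, searched as CCAAT on both strands, was present for HLA-B, HLA-C, B2M, TAP1 and PSMB9, in 5 of 10 windows against 32.0% of all. The TAP1 and PSMB9 windows overlap, and their match is the same 5 bases read on opposite strands. That site is thus counted for both genes, and these windows are not separate. An NF-kB site, searched as GGGANNTTCC, was found for B2M and TAP1 (1.40% of all windows), and a gamma-activated site, searched as TTCNNNGAA, for PSMB8 and TAP1 (6.57% of all windows). A match is a description of letters and not of a bound factor. The windows below are those with the interferon element and those of the HLA-B and HLA-C heavy chains, written 5′ to 3′ on the gene's strand and ending at the base before the start of transcription, with the interferon-stimulated response element core and the CCAAT box in capitals. They show overlapping copies of the interferon element in B2M, TAP1 and TAPBP and 1 copy in TAP2. Of the motifs in capitals, HLA-B and HLA-C held only CCAAT boxes. The searches took only the patterns given, so an element that departs from them was missed and cannot be called absent.
B2M (chr15:44711267-44711516, plus strand): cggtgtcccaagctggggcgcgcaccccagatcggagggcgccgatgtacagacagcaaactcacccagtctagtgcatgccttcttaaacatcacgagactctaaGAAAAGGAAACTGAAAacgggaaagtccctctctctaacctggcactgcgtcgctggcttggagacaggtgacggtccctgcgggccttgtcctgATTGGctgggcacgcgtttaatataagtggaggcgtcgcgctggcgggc
TAP1 (chr6:32853705-32853954, minus strand): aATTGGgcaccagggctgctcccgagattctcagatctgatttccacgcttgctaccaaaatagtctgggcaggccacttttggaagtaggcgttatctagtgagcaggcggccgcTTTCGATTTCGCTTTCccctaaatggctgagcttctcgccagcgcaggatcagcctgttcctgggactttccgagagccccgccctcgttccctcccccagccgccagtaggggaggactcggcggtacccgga
TAP2 (chr6:32838740-32838989, minus strand): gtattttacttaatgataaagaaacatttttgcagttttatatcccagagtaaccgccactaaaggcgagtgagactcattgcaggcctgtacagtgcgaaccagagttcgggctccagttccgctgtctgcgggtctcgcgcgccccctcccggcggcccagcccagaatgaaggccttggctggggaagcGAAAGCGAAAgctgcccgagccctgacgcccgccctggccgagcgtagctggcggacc
TAPBP (chr6:33314079-33314328, minus strand): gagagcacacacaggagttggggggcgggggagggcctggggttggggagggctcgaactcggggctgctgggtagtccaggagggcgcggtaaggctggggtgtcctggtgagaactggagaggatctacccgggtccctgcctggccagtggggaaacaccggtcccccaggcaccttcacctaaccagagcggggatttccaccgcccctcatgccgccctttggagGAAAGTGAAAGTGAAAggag
HLA-B (chr6:31357180-31357429, minus strand): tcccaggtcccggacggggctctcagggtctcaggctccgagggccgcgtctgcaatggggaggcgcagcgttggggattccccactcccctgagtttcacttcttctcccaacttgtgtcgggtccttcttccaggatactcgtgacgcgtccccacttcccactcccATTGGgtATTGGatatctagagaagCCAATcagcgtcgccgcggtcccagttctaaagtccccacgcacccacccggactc
HLA-C (chr6:31272093-31272342, minus strand): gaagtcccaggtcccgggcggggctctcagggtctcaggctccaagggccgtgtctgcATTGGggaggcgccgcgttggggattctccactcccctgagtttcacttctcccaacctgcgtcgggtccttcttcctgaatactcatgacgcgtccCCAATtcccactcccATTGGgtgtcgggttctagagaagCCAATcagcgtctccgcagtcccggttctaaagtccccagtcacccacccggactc

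The TAP1 window belongs to the upstream of its 2 starts, which lies 488 bases from the start of PSMB9 on the opposite strand, so that a transporter gene and an immunoproteasome gene are transcribed away from the same short stretch. In the files' own build (hg19), 8 of the 9 genes lie in or beside the major histocompatibility complex on the short arm of chromosome 6. HLA-E spans chr6:30457183-30461982, HLA-C chr6:31236526-31239913 and HLA-B chr6:31321649-31324989. TAP2 (chr6:32789610-32806547), PSMB8 (chr6:32808494-32812712), TAP1 (chr6:32812986-32821748) and PSMB9 (chr6:32821938-32827628) lie side by side in that order, and TAPBP lies at chr6:33267472-33282164. B2M is encoded apart from the rest, at chr15:45003685-45010357. The deposited tables also list 71 rows of these genes on alternative haplotypes of the region, with none for B2M. All 71 were at 0 FPKM in every library, so that the sum with the other-haplotype rows equalled the primary-chromosome value for each gene.

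Levels differed between A498 and 786-O for all 9 genes, with no overlap between the 4 libraries of each line. Lack of overlap was not counted over all tested genes, most of which were called as different between the lines (below). The heavy chains HLA-B and HLA-C were more than 4-fold higher in A498, B2M was 3.19-fold higher, PSMB9 2.63-fold, HLA-E 2.10-fold, PSMB8 1.99-fold, TAP1 1.95-fold and TAP2 by 1.21-fold to 1.40-fold (95% interval). In bulk RNA a larger share of cells with a transcript and more of it per cell cannot be told apart. TAPBP was the exception, at 0.829 of its 786-O level. By limma over all tested genes with Benjamini-Hochberg adjustment, 8 of 9 were called higher in A498 and 1 lower at an adjusted p under 0.05, against 40.6% and 42.5% of all 10503 tested genes called in these directions. So many genes differed between the lines that a call alone says little. By size, 5 of the 9 were called and at least 2-fold higher in A498, against 15.0% of all tested genes. The median difference over the 9 genes was 1.07 on the log2 scale, against -0.02 over all tested genes.

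**Figure D1:**
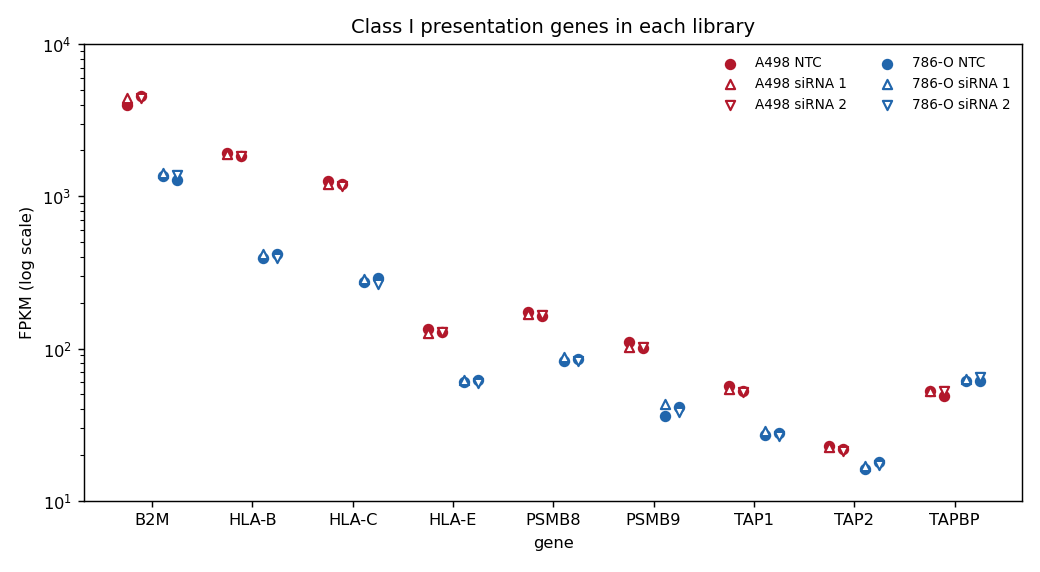
FPKM (log axis) of the 9 genes in each of the 8 libraries, in red for A498 and in blue for 786-O, with filled circles for NTC libraries and open triangles for the libraries with siRNA 1 (up) and siRNA 2 (down). The lines are apart for every gene, B2M is the highest gene in both, and TAPBP is the 1 gene that is higher in 786-O.

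B2M, the light chain that every class I heavy chain needs to leave the endoplasmic reticulum, was the most abundant of the 9. It was at 3989 and 4529 FPKM in the A498 NTC libraries and at 4401 and 4446 FPKM with siRNA 1 and siRNA 2, and at 1363 and 1275 FPKM in the 786-O NTC libraries and 1416 and 1384 FPKM with the siRNAs. All A498 libraries were far above all 786-O libraries, and the lowest A498 library was 1 of the NTC pair. Its log2 difference was 1.67 (95% interval 1.58 to 1.77, adjusted p = 2.55e-10). By mean level B2M ranked 3rd of the 10503 tested genes in A498 and 49th in 786-O.

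HLA-B and HLA-C, classical heavy chains that present peptides to CD8+ T cells, showed the largest differences. HLA-B was at 1913 and 1829 FPKM in the A498 NTC libraries, 1896 and 1839 FPKM with the siRNAs, 392.5 and 416.0 FPKM in the 786-O NTC libraries and 418.3 and 391.2 FPKM with the siRNAs. The spread within a line was small (41.4 FPKM SD in A498 and 14.6 in 786-O, n = 4 each) beside the gap of 2.21 on the log2 scale (95% interval 2.13 to 2.29, adjusted p = 1.33e-11). A difference at least as large in the same direction was found for 6.54% of the tested genes.

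HLA-C was at 1261 and 1206 FPKM in the A498 NTC libraries, 1205 and 1169 FPKM with the siRNAs, 271.9 and 290.3 FPKM in the 786-O NTC libraries and 287.6 and 264.4 FPKM with the siRNAs. The log2 difference was 2.12 (95% interval 2.03 to 2.21, adjusted p = 2.79e-11), and 6.92% of tested genes were at least as far up. By mean level HLA-B was 25th in A498 and 202nd in 786-O, and HLA-C was 58th and 309th.

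HLA-E, a heavy chain of little variation that shows leader peptides of other class I molecules to natural killer cells, was more than 10-fold below HLA-B in A498. It was at 133.7 and 127.5 FPKM in the A498 NTC libraries, 125.9 and 128.4 FPKM with the siRNAs, 60.7 and 62.5 FPKM in the 786-O NTC libraries and 62.4 and 59.2 FPKM with the siRNAs. The lines did not overlap, and the log2 difference was 1.07 (standard error 0.03, adjusted p = 1.37e-09).

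Reads of 36 bases can fall in stretches that class I genes share. Of the 36-base words of 1 principal GENCODE transcript of each gene, 9.99% of HLA-B, 14.9% of HLA-C and 9.63% of HLA-E also occurred in a transcript of another gene on the same strand, and 8.19%, 9.69% and 2.71% occurred in another of the 9 genes. B2M, PSMB8 and PSMB9 had no such shared word. The largest share was that of TAP2, at 35.4% on the same strand, with 0.802% in another of the 9 genes. Nearly all of it lay in 1 other GENCODE entry outside the 9. Whether that entry is a gene apart from TAP2 was not examined, and its bearing on the level and row split of TAP2 is unknown. TAP1 had 1.70% on the same strand. How reads of the shared stretches were divided was the authors' software's choice, and the split between HLA-B and HLA-C is uncertain to that extent. The words are those of the reference genome's alleles, and the alleles of the lines were not examined.

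The immunoproteasome subunits PSMB8 and PSMB9, which replace the constitutive subunits PSMB5 and PSMB6 and shift cleavage toward peptides that class I molecules bind, were both higher in A498. PSMB8 was at 173.1 and 164.3 FPKM in the A498 NTC libraries, 169.6 and 166.2 FPKM with the siRNAs, 83.4 and 85.7 FPKM in the 786-O NTC libraries and 87.4 and 82.2 FPKM with the siRNAs. PSMB9 was at 111.2 and 101.3 FPKM in the A498 NTC libraries, 103.1 and 102.2 FPKM with the siRNAs, 36.1 and 41.2 FPKM in the 786-O NTC libraries and 43.4 and 38.3 FPKM with the siRNAs. The log2 differences were 0.99 for PSMB8 (95% interval 0.91 to 1.07, adjusted p = 2.73e-09) and 1.39 for PSMB9 (95% interval 1.26 to 1.53, adjusted p = 1.20e-08). Within 786-O, PSMB9 had the widest spread of the 9 genes, with its highest library 1.20 times its lowest.

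The constitutive counterparts of PSMB8 and PSMB9 differed less than they did. PSMB5 was 1.26-fold higher in A498 (log2 difference 0.34 ± 0.04 SE, adjusted p = 2.71e-05) and PSMB6 1.36-fold higher (0.44 ± 0.05 SE, adjusted p = 1.17e-05). The ratio of PSMB8 to PSMB5 was 0.694 ± 0.012 (SD, n = 4) in A498 and 0.441 ± 0.016 in 786-O, and the ratio of PSMB9 to PSMB6 was 0.239 ± 0.008 and 0.123 ± 0.008. Neither ratio overlapped between the lines. In both lines the transcripts of the constitutive subunit stayed the more abundant of each pair. PSMB10, the third exchanged subunit, was higher in A498 by 0.19 ± 0.04 SE on the log2 scale (adjusted p = 0.00275), less than PSMB5 and PSMB6. Its ratio to its own counterpart PSMB7 was 0.299 ± 0.015 (SD, n = 4) in A498 and 0.182 ± 0.007 in 786-O.

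TAP1 and TAP2 encode the paired subunits of the peptide transporter, and their levels were not equal. TAP1 was at 57.0 and 52.9 FPKM in the A498 NTC libraries, 54.3 and 51.7 FPKM with the siRNAs, 26.9 and 28.0 FPKM in the 786-O NTC libraries and 28.7 and 26.6 FPKM with the siRNAs. TAP2 was at 22.9 and 22.02 FPKM in the A498 NTC libraries, 22.6 and 21.3 FPKM with the siRNAs, 16.2 and 17.9 FPKM in the 786-O NTC libraries and 16.9 and 17.3 FPKM with the siRNAs. The difference between lines was 0.97 on the log2 scale for TAP1 (95% interval 0.87 to 1.07, adjusted p = 1.79e-08) and 0.38 for TAP2 (95% interval 0.27 to 0.48, adjusted p = 3.04e-05), and 30.9% of all tested genes were at least as far up as TAP2. TAP1 was at 2.43 ± 0.04 (SD, n = 4) times TAP2 in A498 and at 1.62 ± 0.08 times in 786-O.

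TAP1 shares part of its length with an antisense RNA. A GENCODE entry at chr6:32811863-32814272, where PSMB8-AS1 is annotated, overlaps the end of TAP1 on the other strand, and the library kit named in the study's methods does not mark strand. That entry had a mean of 53.6 FPKM in A498 and 23.6 FPKM in 786-O. Of the RefSeq rows of PSMB8-AS1 at the same place, NR_037174 had means of 3.145 and 1.225 FPKM and the others were near 0. Of the 36-base words of the TAP1 transcript, 20.6% occurred on the opposite strand of another gene's transcript, and reads of TAP1 and of the antisense RNA cannot be told apart where they overlap. It also meets the longer of the 2 PSMB8 rows, which held 0.0288% of the gene's mean level, and not the other.

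TAP2 was the sum of 2 transcript rows that differ at the 3′ end. The row that reaches farther, NM_018833, held 48.7%, 48.7% and 48.6% of TAP2 in the 2 NTC libraries and the siRNA 1 library of A498, but 36.7% in the siRNA 2 library. In 786-O it held 37.3% to 39.1% in all 4 libraries. The A498 library with siRNA 2, the shallowest of the 8, thus lay with 786-O in this share although its summed TAP2 level lay with A498. With the more abundant row alone, NM_000544, the difference between the lines was 0.19 on the log2 scale (95% interval 0.05 to 0.33, adjusted p = 0.0222), below the interval of the summed value.

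**Figure D2:**
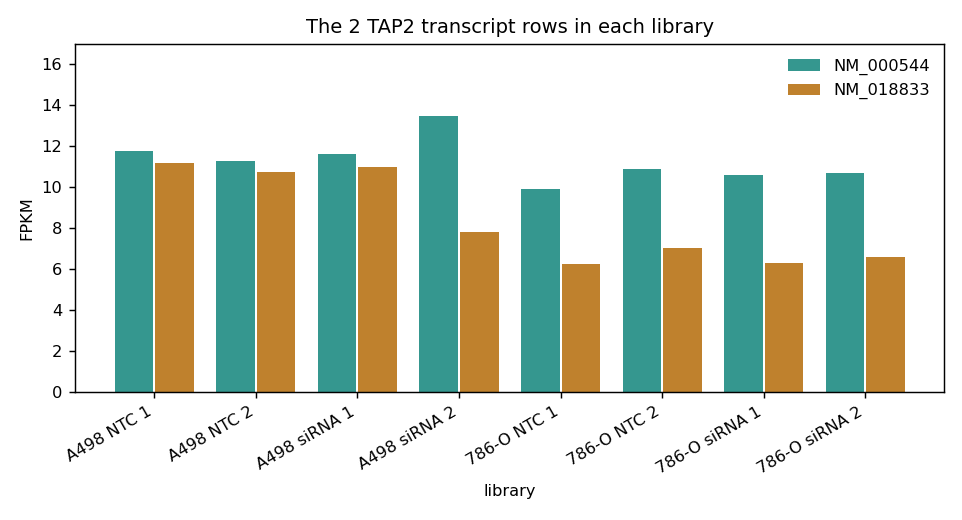
FPKM of the 2 TAP2 transcript rows, NM_000544 and NM_018833, as bars from 0 for each of the 8 libraries. The rows are nearly equal in 3 A498 libraries, and NM_018833 is the lower in the A498 library with siRNA 2 and in all 4 libraries of 786-O.

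Tapasin, which bridges TAP and the empty class I molecule and edits the peptides that it keeps, went the other way. TAPBP was at 53.0 and 48.6 FPKM in the A498 NTC libraries, 52.9 and 52.9 FPKM with the siRNAs, 61.5 and 61.0 FPKM in the 786-O NTC libraries and 62.9 and 64.8 FPKM with the siRNAs. Every 786-O library was above every A498 library, and the log2 difference was -0.27 (95% interval -0.35 to -0.19, adjusted p = 7.32e-05). A difference at least as large in this direction was found for 35.5% of all tested genes. TAPBP was 3 rows, of which NM_172209 held 84.0% of the mean, and the authors' 95% interval of that row reached from 0 to 88.8 FPKM in the first A498 NTC library and from 0 to 102.7 FPKM in the second 786-O NTC library, while it was at most 3.55% of the value to either side in the other 6. In the principal TAPBP transcript, 42.7% of 36-base words occurred in a transcript of another gene on the opposite strand and 11.2% on the same strand.

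The 9 genes therefore did not keep their proportions. HLA-C to HLA-B was 0.647 ± 0.014 (SD, n = 4) in A498 and 0.689 ± 0.009 in 786-O, and HLA-E to HLA-B was 0.0690 ± 0.0017 and 0.151 ± 0.002. B2M was at 1.36 ± 0.10 times the sum of the HLA-B, HLA-C and HLA-E levels in A498 and at 1.83 ± 0.12 times in 786-O. TAPBP was at 0.962 ± 0.048 of TAP1 in A498 and at 2.27 ± 0.12 of it in 786-O. The 7 ratios tested (the 2 proteasome ratios of PSMB8 and PSMB9 and TAP1 to TAP2 included) had no overlap between the lines. This gave p = 0.0286 each by a two-sided exact permutation test of the line labels, and 0.0286 after Benjamini-Hochberg adjustment over the 7. That p is the smallest that 4 against 4 libraries allow and is fixed once libraries do not overlap. The ratios were chosen with earlier results known, so the test adds nothing to the lack of overlap. PSMB10 to PSMB7, HLA-B to B2M and TAP1 to PSMB9 were computed but not tested. The share of the 9 genes in the FPKM summed over all coding rows was 1.52% to 1.63% in A498 and 0.438% to 0.474% in 786-O.

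**Figure D3:**
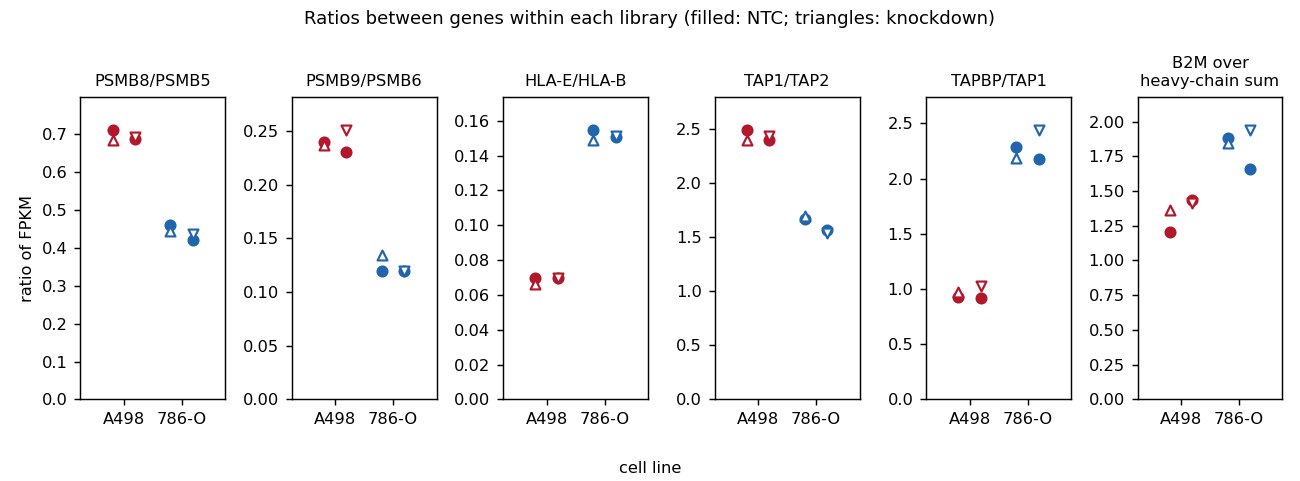
Ratios of FPKM between genes within each library, 1 panel per ratio with its axis from 0, in red for A498 and blue for 786-O, with filled circles for NTC and triangles for the siRNA libraries. PSMB8 to PSMB5, PSMB9 to PSMB6 and TAP1 to TAP2 are higher in A498, while HLA-E to HLA-B, TAPBP to TAP1 and B2M to the heavy-chain sum are higher in 786-O.

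The rest of the pathway was described by lists of related genes, 59 genes in all. Of these, 54 were tested and 53 differed between the lines by the same limma fit. At an unadjusted p under 0.05 in this fit, 98.1% of the 54 differed, against 83.7% of all tested genes. Of all tested genes, 40.6% were called higher in A498 and 42.5% lower, so the counts of each list say little by themselves. Of 9 other class I and class I-like heavy chains, 7 were tested, 5 were higher in A498, 1 was lower and 1 was not called. MR1, which presents vitamin B metabolites to MAIT cells, was at 4.57 to 5.003 FPKM in A498 and at 0.421 to 0.550 FPKM in 786-O (log2 difference 3.12 ± 0.08 SE, adjusted p = 1.79e-10). It passed the filter of a mean of 1 FPKM only through A498, which fixed its direction. HLA-F was at 150.1 to 164.5 FPKM against 19.6 to 21.3 FPKM (2.93 ± 0.04 SE), a larger gap than that of any of the 9 genes, and HLA-G at 44.5 to 48.9 FPKM against 12.1 to 13.5 FPKM (1.85 ± 0.04 SE). MICA, a stress ligand of the NKG2D receptor that binds neither peptide nor B2M, was lower in A498, at 20.0 to 23.0 FPKM against 33.3 to 35.8 FPKM (-0.68 ± 0.05 SE).

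Other proteasome genes differed by less than PSMB8 and PSMB9. Of 8 partners, 7 were higher in A498 and 1 was lower, with a median of 0.36 on the log2 scale. PSME2, a subunit of the interferon-inducible PA28 activator, was at 253.5 to 262.6 FPKM in A498 and at 144.0 to 154.4 FPKM in 786-O (0.78 ± 0.03 SE). PSMB7, the constitutive subunit that PSMB10 replaces, was the 1 gene lower in A498, at 383.5 to 409.6 FPKM against 555.4 to 595.7 FPKM (-0.53 ± 0.03 SE).

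The genes of peptide loading and trimming in the endoplasmic reticulum did not share a direction. Of 7, 3 were higher in A498 and 4 lower. The trimming enzymes ERAP1 (0.60 ± 0.05 SE) and ERAP2 (0.20 ± 0.05 SE) and the tapasin-related TAPBPL (0.29 ± 0.05 SE) were higher, and the general folding helpers CANX (-0.52 ± 0.05 SE), PDIA3 (-0.38 ± 0.04 SE) and HSPA5 (-0.35 ± 0.03 SE) were lower, as was TAPBP. Of 6 cytosolic peptidases, 3 were higher and 3 lower: LAP3 (0.48 ± 0.04 SE), an aminopeptidase known as interferon-inducible, stood highest, and THOP1 (-0.80 ± 0.05 SE), which destroys peptides in the cytosol, lowest.

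Among 15 genes of transcription factors that act on class I promoters, 9 were higher in A498 and 6 lower. IRF9, the DNA-binding part of the ISGF3 complex, was at 36.3 to 38.4 FPKM in A498 and at 3.37 to 4.29 FPKM in 786-O (3.29 ± 0.08 SE, adjusted p = 1.56e-10), and its partner STAT2 at 8.79 to 11.1 FPKM against 2.22 to 2.48 FPKM (1.99 ± 0.08 SE). NLRC5, the transactivator of class I genes that acts through the SXY module, was at 3.60 to 4.21 FPKM against 1.24 to 1.57 FPKM (1.40 ± 0.09 SE), and IRF2 was higher by 1.57 ± 0.10 SE on the log2 scale. IRF1 (0.72 ± 0.04 SE), which is itself induced by interferon gamma and binds class I promoters, differed less. NFKB1 (-0.67 ± 0.04 SE), RFXAP (-0.64 ± 0.12 SE) and NFYB (-0.63 ± 0.07 SE) were the lowest of the list in A498.

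Of 6 genes of the interferon gamma receptor and its kinases, 5 were higher in A498 and JAK1 was lower (-0.39 ± 0.04 SE). SOCS3, a feedback inhibitor of cytokine receptors, stood highest at 1.66 ± 0.07 SE, followed by the receptor chain IFNGR2 (1.40 ± 0.05 SE) and JAK2 (log2 1.297 ± 0.080 SE). JAK2 had a mean of 0.746 FPKM in 786-O and passed the filter of a mean of 1 FPKM only through A498. All 5 tested genes of the class II pathway, of 8 listed, were higher in A498. Of these, HLA-DRA, HLA-DMA and HLA-DPA1 had means of 0.00715, 0.209 and 0.0512 FPKM in 786-O. They too passed the filter only through A498, which fixed their direction, so the count of 5 is no result by itself. HLA-DRA, the alpha chain of HLA-DR, was at 5.82 to 8.01 FPKM in A498 and was listed at 0 in 3 of 4 libraries of 786-O. HLA-DMA was at 11.1 to 11.5 FPKM in A498 and at 0.0599 to 0.297 FPKM in 786-O, and HLA-DPA1 at 2.80 to 3.21 FPKM and 0.0144 to 0.0739 FPKM. CIITA, HLA-DPB1 and HLA-DMB were below the filter, and so were the leukocyte markers given above.

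**Figure D4:**
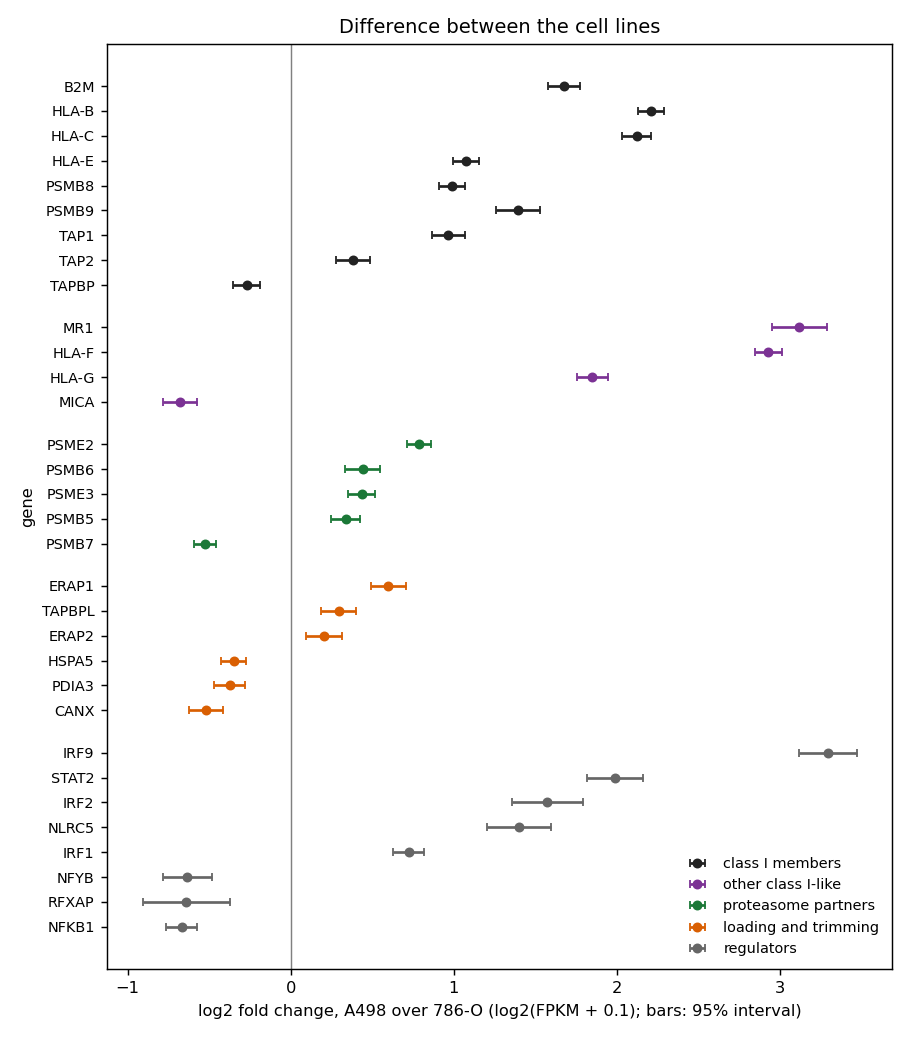
Log2 fold change of A498 over 786-O (limma on log2(FPKM + 0.1)) with its 95% interval as bars, for the 9 genes and for named genes of 4 related lists. HLA-B at 2.21 is the highest of the 9 and TAPBP at -0.27 the lowest. MR1, HLA-F and IRF9 lie farther to the right than any of the 9, and PSMB7, CANX and NFKB1 lie left of 0.

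Knockdown of SLINKY was then compared with NTC, to ask whether class I presentation was among the transcripts that changed. None of the 9 genes was called over both lines, none in A498 alone and none in 786-O alone, and the knockdown effect was not called as different between the lines for any of them. The same limma fits called 0 of all 10503 tested genes over both lines (0%), 3 in A498 (0.0286%), 0 in 786-O (0%) and 1 for the difference between lines (0.00952%). Leaving out an siRNA library of A498 leaves 1, and the residual error then comes from the NTC pair alone. Counts of called genes from such a fit cannot be set beside these. With non-coding rows added to a symbol, 20 genes were called in A498 and 16 in 786-O, again with none of the 9. No gene of the 9 reached even an unadjusted p under 0.05 in any of these fits, while 1249, 639, 398 and 191 of all tested genes did. Over both lines the 95% intervals of the 9 genes, with rows summed, lay between -0.13 and 0.17 on the log2 scale. Changes of more than 1.124-fold in either direction lay outside all of them. Within a line the intervals were wider and reached 1.163-fold in A498 and 1.249-fold in 786-O. All of these intervals rest on the spread between libraries, which may be technical. The fits took the siRNAs of a line as replicates of the knockdown. Differences between the siRNA reagents, and in the SLINKY level left with each, are therefore part of that spread.

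Over both lines B2M had the largest estimate, 0.07 on the log2 scale (95% interval -0.02 to 0.17, adjusted p = 0.518), followed by TAPBP at 0.06 (95% interval -0.02 to 0.14, adjusted p = 0.534). HLA-C had the lowest, -0.04 (95% interval -0.13 to 0.05, adjusted p = 0.675), and HLA-B was at 0.00 (95% interval -0.08 to 0.08, adjusted p = 0.998). HLA-E, TAP1 and TAP2 were at -0.03, -0.02 and -0.02, and PSMB8 and PSMB9 at 0.00 and 0.02. With its most abundant row alone, TAPBP was at 0.14 (95% interval 0.04 to 0.24) with an unadjusted p of 0.0145 and an adjusted p of 0.501 in limma.

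By siRNA, none of the 36 fold changes (9 genes, 2 siRNAs, 2 lines, and 2 siRNAs sharing the NTC mean of their line) reached the study's threshold for a changed transcript, a rise of 25% or the inverse fall. They ranged from 0.941 to 1.12. None of the 9 genes was past this threshold the same way with both siRNAs, against 1.10% of tested genes in A498 and 1.17% in 786-O. The largest was PSMB9 in 786-O, at 1.12 with siRNA 1 and 0.990 with siRNA 2. B2M and TAPBP were above the NTC mean with both siRNAs in both lines, B2M by 1.03 and 1.04 in A498 and 1.07 and 1.05 in 786-O, and TAPBP by 1.04 and 1.04 in A498 and 1.03 and 1.06 in 786-O. The siRNA libraries of a line share their NTC mean, and 17.6% of all tested genes were above it in all 4 comparisons. Both siRNAs lay on the same side of it for 6 of the 9 genes in A498 and 2 of the 9 in 786-O, against 68.3% and 59.2% of all tested genes. In A498 the position of B2M and TAPBP rests on 1 control each. The second NTC library was above both siRNA libraries for B2M, and without the first the estimate changed from 0.06 to -0.03 on the log2 scale. The first NTC library was above both for TAPBP, and without the second the estimate changed from 0.06 to -0.002.

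**Figure D5:**
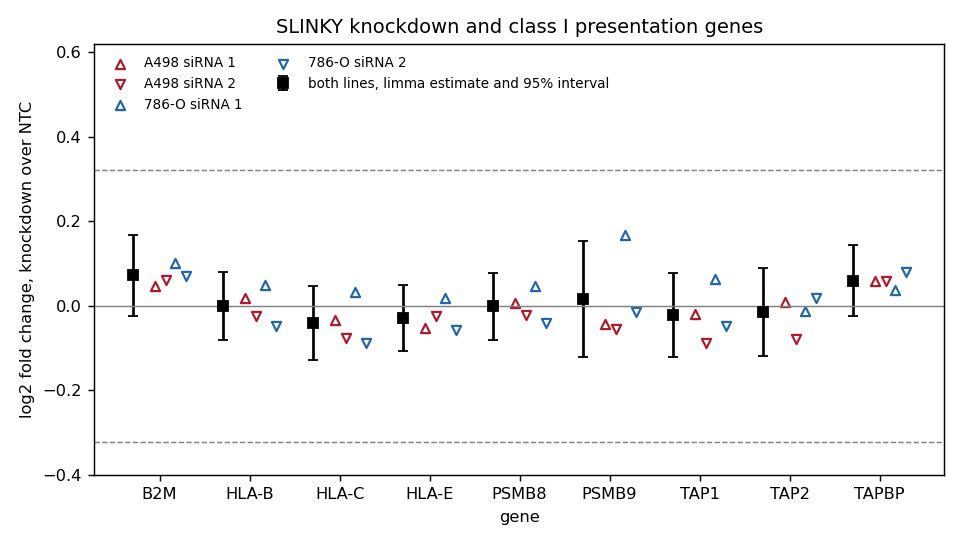
Log2 fold change of SLINKY knockdown over NTC for the 9 genes. Black squares and bars are the limma estimate over both lines and its 95% interval, triangles are single siRNA libraries against the NTC mean of their line (red A498, blue 786-O), and dashed lines mark the threshold of a 25% rise and its inverse. All bars cross 0 and all triangles lie between the dashed lines.

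None of the 54 tested genes of the related lists was called with knockdown in any of the 4 fits. Over both lines 7 of the 54 (13.0%) had an unadjusted p under 0.05, close to the 11.9% of all tested genes, with 0.349 as the smallest adjusted p. ERAP1 was at 0.16 ± 0.05 SE on the log2 scale (unadjusted p = 0.00915, adjusted p = 0.349 in limma). NLRC5 was at 0.00 ± 0.09 SE and IRF1 at 0.03 ± 0.04 SE.

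The 9 genes varied little among libraries of a line, PSMB9 in 786-O the most. The authors' 95% intervals, which cover at most counting and assignment error, reached no more than 1.01% of the value to either side for B2M, 1.43% for HLA-B, 1.71% for HLA-C, 6.00% for PSMB9 and 7.58% for TAP1. The first NTC library held the highest value of A498 for 8 of the 9 genes and the lowest for B2M. In 786-O the siRNA 1 library was highest for 5 of the 9 and the siRNA 2 library lowest for 5. Over the 8 libraries, each taken as the deviation from its line's mean on the log2 scale, HLA-B correlated with PSMB8 at r = 0.949, whereas B2M correlated negatively with each of the other 8 (r = -0.65 to -0.13) and TAPBP with none of them strongly (r = -0.23 to 0.22). These are descriptions over 8 libraries that share depth and composition. Outside the lists, the genes most like the mean deviation of the 9 were ILK (r = 0.984), BCR (0.982), ST6GALNAC4 (0.979), PLA2G15 (0.977) and BCAT2 (0.976), of 6929 genes with a mean of at least 5 FPKM, 68 of which had an r of at least 0.9.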

How the data were processed

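RNA-seq libraries (TruSeq kit, single-end 36-bp reads, HiSeq) of 4 groups with 2 libraries each were used. The authors mapped reads to hg19 and deposited, for each library, FPKM values from Cufflinks with 95% intervals; the submitters' processing notes name TopHat2 2.0.0 and Cufflinks 2.0.2. No scaling between libraries is stated. Of 35951 RefSeq coding rows, 97.7% were given a current symbol through transcript accessions in a RefSeq gene table of a later assembly, used for names only, and primary-chromosome rows of a symbol were summed. No counts were used. Depth was inferred from the FPKM of low genes that hold 1 read.

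log2(FPKM + 0.1) was fitted for all genes with a mean of at least 1 FPKM using limma 3.58.1 in R 4.3.3, with the variance trend and Benjamini-Hochberg adjustment (threshold 0.05). Line and knockdown were additive terms, 4 libraries were fitted for knockdown within a line, and 4 group means for the interaction. The siRNAs of a line were taken as replicates of the knockdown. The fits were tested on simulated data. Fold changes are on the log2(FPKM + 0.1) scale. Ratios given with a p-value were compared by exact permutation. Members, lists, ratios and motifs were chosen with earlier results of these data known. All 9 genes are named, and of each list at most 3 genes a direction by the largest difference between lines, plus PSMB5, PSMB6, NLRC5 and IRF1. Not every gene that this rule names is reported here. A gene whose reads split among paralogs, copies or antisense genes is uncertain to that extent. Python 3.11.15, pandas 2.3.3, scipy 1.17.1 and matplotlib 3.10.9 were used.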

Additional observations from a re-analysis of the deposited data

How the results depend on the processing

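Of the 9 genes, 9 were called between the lines and 0 for each knockdown fit and for the interaction. These counts did not move with the pseudocount at 1 or 0.01 FPKM, without the filter or with median-ratio scaling. They also held with other-haplotype or non-coding rows added, with the most abundant row only and without the variance trend. With 4 group means, the counts between the lines and for each knockdown fit held. The count between the lines held with NTC or knockdown libraries only. With each library left out, the counts between the lines and for knockdown over both lines held. Within a line and for the interaction, a library left out leaves 1 in its group, so no such count is given. In a fit that blocks on replicate number (a paired fit), 9 were called between the lines and 0 with knockdown, and 0 were past the fold threshold with both siRNAs when each was set against its same-numbered NTC library. The labels number siRNAs and NTC libraries alike without stating a shared culture, and deviations of same-numbered libraries correlated at 0.25 in A498 and -0.03 in 786-O over 10503 genes. The HLA-B difference ranged from 2.19 to 2.23 on the log2 scale, TAP2 from 0.19 (most abundant row only) to 0.40, and TAPBP from -0.34 to -0.25. Depth is known only as an estimate.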
